A study of Mus musculus with 24 samples.

Results

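MLO-Y4 cells kept in an ordinary incubator and given Cx43(E2), an antibody that blocks connexin 43 hemichannels, were compared with incubator cells of the IgG arm. The comparison holds 6 of the study's 24 arrays, with 3 in each arm, chosen by the position and the antibody in the sample titles. The other 18 arrays hold the same arms at 3 positions, labelled 1g, 2g and ug, of a magneto-gravitational platform. MLO-Y4 is a mouse cell line with osteocyte features, so all arrays describe 1 line. The Cx43(E2) arrays name their antibody in their labels. The IgG arrays carry no antibody in their own labels, and the shared protocol text gives an irrelevant rabbit IgG. Both antibodies were used at a dilution of 1:50, with Cx43(E2) at 28 µg/ml, and cells were held with antibody for 30 min (37 °C, 5% CO2). No label says that arrays with different numbers came from separate cultures, so every p-value measures only the spread between these arrays. The arrays are called IgG 1, 2 and 3 and E2 1, 2 and 3 after the numbers in their titles. Values are deposited log2 intensities, changes are E2 minus IgG on that scale, and errors after ± are standard errors from limma.

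Connexin 43 forms gap junction channels between neighbouring cells and hemichannels that open to the outside of a single cell. Osteocytes sit inside bone matrix, where mechanical load opens hemichannels and lets ATP and prostaglandin E2 leave the cell. Both act on receptors of the same or nearby cells, and enzymes on the cell surface break ATP down to adenosine.

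Each array was checked first, because the number 3 arrays resembled the other arm. The SD over genes of the difference between 2 arrays was 0.133 for IgG 1 and IgG 2 and 0.135 for E2 1 and E2 2. IgG 3 differed from E2 1 with an SD of 0.169 and from E2 2 with an SD of 0.192, less than from IgG 1 (0.231) or IgG 2 (0.255). The array labelled IgG 3 therefore lay nearest to E2 1 and E2 2. The array labelled E2 3 was far from every other array over all genes: its SD was 0.278 and 0.280 against E2 1 and E2 2, 0.290 and 0.321 against IgG 1 and IgG 2, and 0.319 against IgG 3. Over the brighter 50% of genes it lay nearer to IgG 1 and IgG 2 (0.217 and 0.214) than to E2 1, E2 2 and IgG 3 (0.278, 0.288 and 0.294). After quantile normalization its nearest array over all genes was IgG 1 (0.271, against 0.278 for E2 1). Deviations from the group means correlated across genes and arms at -0.36, -0.35 and -0.59 for numbers 1, 2 and 3. They correlated at -0.32 for IgG 2 with E2 1 and at -0.43 for IgG 1 with E2 2. A number 3 array and an array of another number correlated at 0.41 to 0.50. These values follow the number 3 arrays, so they cannot decide whether the numbers pair arrays across arms. Whether labels were exchanged was not tested, and arrays were kept in their labelled groups.

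**Figure D1:**
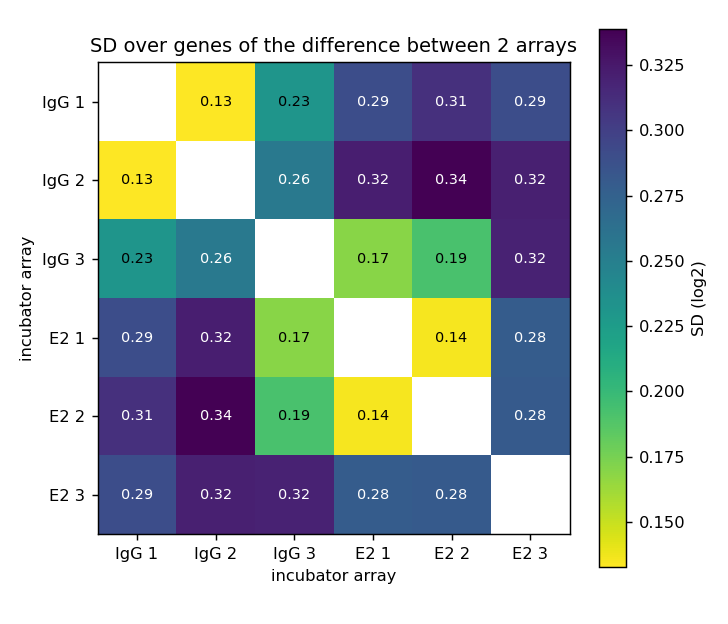
SD over 14489 genes of the difference between each pair of incubator arrays, on the log2 scale. IgG 3 is nearest to E2 1 (0.17), and E2 3 lies at 0.28 to 0.32 from the other arrays.

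Of 14 osteocyte markers measured, 11 lay at or above the 40th percentile of their array on all 6 arrays. Hyou1, Fbln7, Cdh11, Irx5, Ank and Tnfsf11, all among the 11, were not in the planned set of osteocyte markers and raise this share. Dmp1, Mepe and Phex, which encode matrix and phosphate-handling proteins of osteocytes, lay below it on all 6. Pdpn (podoplanin, a marker of young osteocytes) was bright at 12.5 to 12.8, while Sost, which encodes the Wnt inhibitor sclerostin, lay between 6.86 and 7.22. The label of an osteocytic line thus rests here on part of the marker list. Among markers of other cell types, 6 of 12 for macrophages lay below the 40th percentile on all 6 arrays, Adgre1, Itgam and Ptprc among them, as did Sp7 and Ibsp of the osteoblast list. The other 6 macrophage markers lay above it on all 6, with Cd14 at 8.21 to 9.53, Cd68 at 8.03 to 9.09 and Lyz2 at 7.44 to 8.25. So did 5 of 7 osteoblast, 6 of 10 endothelial, 5 of 7 adipocyte, 5 of 9 chondrocyte and 3 of 7 lymphocyte markers. Of the osteoblast markers, Sparc lay at 12.75 to 12.98 and Alpl at 10.02 to 10.62. Sparc and Phospho1 were not in the planned set of osteoblast markers. Array medians in the incubator ran from 6.48 to 6.65, and precision is limited by having 3 arrays in each arm.

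The target's gene, Gja1 (connexin 43), was bright in both arms. It measured 11.59, 11.55 and 12.002 on IgG 1, 2 and 3 and 11.88, 11.85 and 11.38 on E2 1, 2 and 3. The arms overlapped, with IgG 3 the highest of the 6 arrays and E2 3 the lowest. The change was -0.02 ± 0.18 (limma, adjusted p = 0.963). Without the number 3 arrays of all groups, where 4313 of 14489 genes were called, it was 0.29 ± 0.06 (adjusted p = 0.00435). For Gja1 the number 3 arrays thus decided the value. On the platform its change was 0.03 (1g), 0.01 (2g) and 0.10 (ug), each ± 0.18. The antibody binds protein, and the Gja1 messenger does not check which antibody a dish received.

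Over all 14489 genes tested, limma called 423 at an adjusted p below 0.05, or 2.92%. With Cx43(E2) 232 genes rose (1.60%) and 191 fell (1.32%). Rises ran from 0.20 to 0.87 and falls from -0.11 to -0.97 on the log2 scale, and the smallest adjusted p was 0.0330. The 3 E2 arrays lay all above or all below the 3 IgG arrays for 422 of the 423 called genes. The exception was Heatr4, which was named after its values were seen. Such a separation was common among all genes: 35.0% of them did not overlap, 19.0% with E2 higher and 16.1% with E2 lower. The count of calls depended on single arrays: it was 0 without IgG 1, 0 without IgG 2, 928 without IgG 3, 414 without E2 1, 15 without E2 2 and 0 without E2 3. Without number 1, 2 or 3 of all groups it was 0, 0 and 4313. It was also 0 with a fit of the 6 incubator arrays alone (lowest adjusted p 0.0786). Arrays of 1 arm and number may share cultures across positions, and with arm and number as a random block (consensus correlation 0.35) the count was 0 as well (lowest adjusted p 0.0633). The genes named below as called are therefore those of the fit without that block. After quantile normalization 46 genes were called, all among the 423, and 80.4% of them were rises against 54.8% in the deposited values.

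Rises and falls came from different levels of brightness. The called rises had a median level of 6.71 and the called falls of 8.28, against 8.41 for all genes tested, and 214 of the 232 rises lay below that median. Genes were split by level into 5 bins of equal size. In the dimmest bin the median change over all genes was 0.16, with 100 rises and 11 falls called. In the middle bin it was -0.06, with 25 rises and 82 falls, and in the brightest bin -0.03, with 6 rises and 26 falls. The dimmest bin deviated from its genes' means over the 6 arrays by 0.16 at the median on E2 3, by 0.02 and 0.04 on E2 1 and E2 2, and by -0.07, -0.11 and -0.04 on IgG 1, 2 and 3. E2 3 thus held the largest deviation. At the platform positions the median change of the same bin was 0.03, 0.02 and 0.05. The part of this shift in single calls was not tested, and among the 7244 genes above the median level taken alone 0 were called (lowest adjusted p 0.084, with 1557 at an unadjusted p below 0.05).

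**Figure D2:**
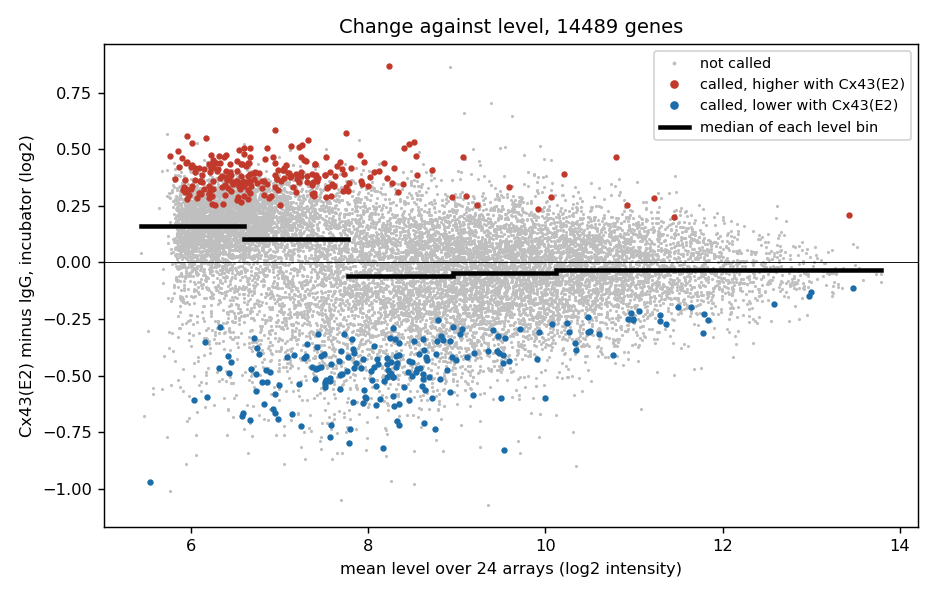
Change with Cx43(E2) in the incubator (log2) against the mean level of each gene over 24 arrays (log2 intensity), with the 423 called genes coloured and black bars at the median change of each bin of genes by level. The bars run from 0.16 in the dimmest bin to -0.03 in the brightest.

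The largest called rise was Olfr767, an olfactory receptor gene. It measured 7.94, 7.35 and 8.17 on IgG 1, 2 and 3 and 8.33, 8.63 and 9.11 on E2 1, 2 and 3, a change of 0.87 ± 0.21 (adjusted p = 0.0435). IgG 3 was the IgG array nearest the E2 arm. Rtbdn, which encodes the riboflavin-binding protein retbindin of the retina, measured 6.63, 6.45 and 6.77 against 7.06, 7.15 and 7.40. Its change was 0.59 ± 0.10 (adjusted p = 0.0330), and it stayed called after quantile normalization (0.52, adjusted p = 0.0421). Edn3, which encodes the secreted peptide endothelin 3, measured 5.77, 6.06 and 5.86 against 6.46, 6.31 and 6.57, a change of 0.55 ± 0.11 (adjusted p = 0.0380). The arms did not overlap, as required of all 10 rises named here, and IgG 2 was the nearest IgG array. Hmx3 and Pou4f3 encode transcription factors known from the inner ear. Hmx3 measured 7.004, 6.91 and 7.04 against 7.38, 7.51 and 7.68, and rose by 0.54 ± 0.11. Pou4f3 measured 5.65, 5.45 and 5.80 against 6.20, 5.96 and 6.41, and rose by 0.56 ± 0.14. The other 5 of the 10 largest rises were Pate11 (0.57), Prp2 (0.53), Tmem72 (0.53), Prr23a1 (0.52) and Gm7932 (0.52). All IgG values of Pou4f3 and Tmem72 lay below the lowest 40th percentile of any array (5.90). Among the incubator arrays only E2 arrays could carry these 2 genes past the filter, so their calls support nothing. E2 3 was the highest of the 6 arrays in 188 of the 232 rises and IgG 2 the lowest in 144. Without E2 3 none of the rises in this paragraph was called: the change of Rtbdn was then 0.49 ± 0.11 (adjusted p = 0.150) and that of Edn3 0.49 ± 0.12 (adjusted p = 0.150). Those of Pate11 and Tmem72 were 0.37 and 0.34. Olfr767, Olfr810, Pate11, Prp2 and Prr23a1 belong to families of similar genes, and whether their probes read 1 member was not tested.

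The largest called fall was Zfp518a, a zinc finger gene. It measured 6.17, 6.49 and 5.92 on IgG 1, 2 and 3 and 5.43, 4.88 and 5.37 on E2 1, 2 and 3, a change of -0.97 ± 0.24 (adjusted p = 0.0437). Purb, which encodes a protein that binds purine-rich single strands of DNA and RNA, measured 10.22, 10.20 and 10.004 against 9.61, 9.02 and 9.32, a change of -0.83 ± 0.22 (adjusted p = 0.0496). A second kept probe set of Purb changed by -0.17. Eea1, which encodes a tether of early endosomes, measured 8.92, 8.92 and 8.40 against 8.09, 7.71 and 7.99, a change of -0.82 ± 0.22. IgG 3 was the lowest IgG array for all 3 of these genes. Kdm7a, a histone demethylase gene, measured 8.46, 8.36 and 8.22 against 7.69, 7.21 and 7.74, a change of -0.80 ± 0.19. Chm, which encodes the escort protein that brings Rab GTPases to be lipid-modified, measured 8.17, 8.26 and 7.88 against 7.36, 7.19 and 7.45, a change of -0.77 ± 0.20. Each of these genes separated the arms on all 6 arrays, as the rule for naming them required. The other 5 of the 10 largest falls were Gpcpd1 (-0.74), Olfr810 (-0.73), Alkbh8 (-0.72), Zfp141 (-0.72) and Haus6 (-0.72). Alkbh8 encodes a tRNA-modifying enzyme and Haus6 a subunit of the augmin complex of the spindle. Without E2 3 the change of Zfp518a was -1.04 ± 0.27 (adjusted p = 0.150), and IgG 3 was the IgG array nearest the other arm in 145 of 191 falls.

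**Figure D3:**
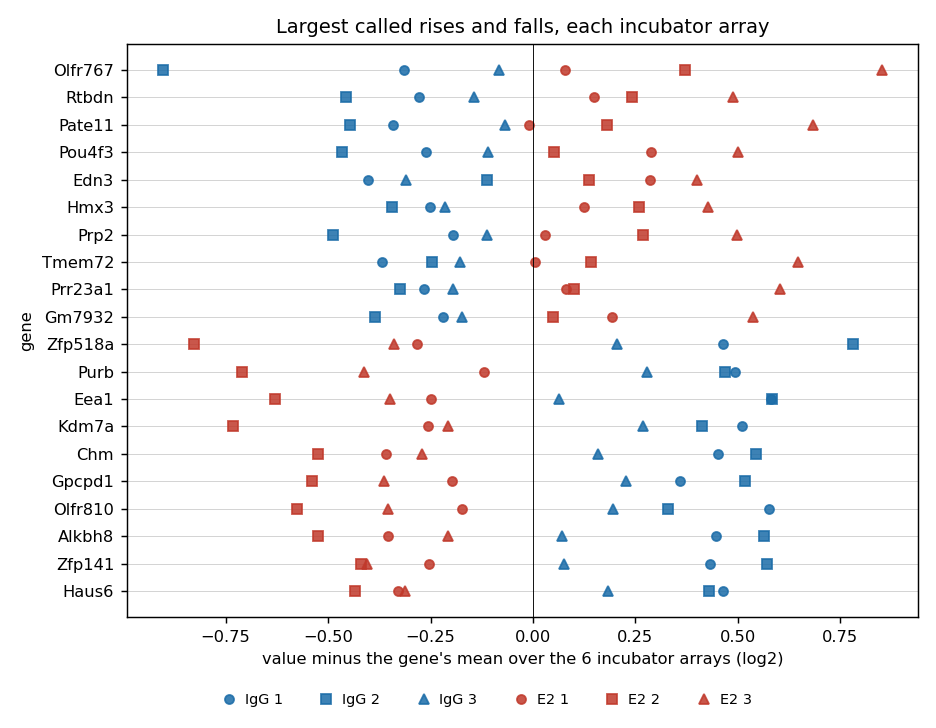
The 10 largest called rises and 10 largest called falls on each incubator array, as the value minus the gene's mean over the 6 arrays (log2). Blue points are IgG and red points E2 arrays, and the shapes give the array number. The arms separate for each gene, as the rule for naming them required. IgG 3 is the IgG array nearest to the E2 arm for 19 of the 20.

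The start regions of 1 rise and 1 fall are shown because their content of the CG dinucleotide differs. Sequences are RefSeq promoter windows of 300 bases at the gene's start on GRCm38.p6, with each CG in capitals. The Rtbdn window (chr8:84946741-84947040, plus strand) holds 4 CG and the Zfp518a window (chr19:40894455-40894754, plus strand) holds 35, against a median of 19 over the 11477 genes with a window.
Rtbdn promoter: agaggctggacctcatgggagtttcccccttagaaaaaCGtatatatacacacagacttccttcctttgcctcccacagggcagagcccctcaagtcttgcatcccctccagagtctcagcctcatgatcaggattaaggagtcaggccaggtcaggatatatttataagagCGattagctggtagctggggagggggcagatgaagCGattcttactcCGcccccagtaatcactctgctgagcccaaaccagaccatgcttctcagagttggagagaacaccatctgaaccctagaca
Zfp518a promoter: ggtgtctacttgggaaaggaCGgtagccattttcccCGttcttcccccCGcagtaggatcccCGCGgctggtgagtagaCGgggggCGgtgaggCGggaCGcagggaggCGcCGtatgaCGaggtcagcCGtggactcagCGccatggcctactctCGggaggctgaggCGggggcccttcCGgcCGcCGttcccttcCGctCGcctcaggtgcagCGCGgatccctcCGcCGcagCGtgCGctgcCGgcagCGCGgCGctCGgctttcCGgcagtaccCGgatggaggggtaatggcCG
The medians were 9.5 for called rises and 23 for called falls. This comparison is void, since a window was found for 79.2% of genes tested and 73.3% of the rises, and the count changed with level. In the dimmest bin by level, which holds Zfp518a, the median was 8 over all genes, 8 for rises and 14 for falls. In the second bin, which holds Rtbdn, it was 16, 9.5 and 20, and in the middle bin 22, 11 and 23.5. Gene length, known for 99.9% of genes, had a median of 20.1 kb over all genes, 9.11 kb for the rises and 39.7 kb for the falls. Within the middle bin by level, where all genes had a median of 25.1 kb, it was 4.79 kb for 25 rises and 46.8 kb for 82 falls. In the dimmest bin, which held 100 of the rises, it was 15.3 kb for rises against 15.5 kb for all its genes, with 23.9 kb for 11 falls. In the brightest bin 26 falls had 22.3 kb and 6 rises 4.93 kb, against 19.0 kb.

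Of 104 miRNA genes tested, 7 rose and none fell, so 6.73% were called up against 1.60% of all genes and 3.28% to 3.45% of genes in the dimmest 2 bins. Their median change was 0.22 and their median level 6.73, against 8.41 for all genes. The 7 were Mir92b (0.47), Mir338 (0.45), Mir497 (0.44), Mir187 (0.44), Mir328 (0.38), Mir326 (0.35) and Mir666 (0.34). Mir338 measured 7.06, 6.97 and 7.05 on IgG 1, 2 and 3 and 7.34, 7.48 and 7.62 on E2 1, 2 and 3, a change of 0.45 ± 0.08 (adjusted p = 0.0330). Mir92b measured 7.24, 7.25 and 7.31 against 7.66, 7.52 and 8.01, a change of 0.47 ± 0.10 (adjusted p = 0.0394). E2 3 was the highest array for both. After quantile normalization Mir338 and Mir92b remained called. Mature sequences were found for 5 of the 7 genes, and those of the 3 with the largest changes are shown, from RefSeq on GRCm38.p6, with the seed (bases 2 to 8) in capitals. Mir338 lies at chr11:120014781-120014802 and chr11:120014816-120014837 on the minus strand, Mir92b at chr3:89227126-89227147 and chr3:89227165-89227188 on the minus strand, and Mir497 at chr11:70234730-70234751 and chr11:70234770-70234790 on the plus strand.
mmu-miR-338-5p: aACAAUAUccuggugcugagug
mmu-miR-338-3p: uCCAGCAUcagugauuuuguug
mmu-miR-92b-5p: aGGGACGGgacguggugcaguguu
mmu-miR-92b-3p: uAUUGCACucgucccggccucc
mmu-miR-497a-5p: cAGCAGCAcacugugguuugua
mmu-miR-497a-3p: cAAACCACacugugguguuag
No seed was shared among the 10 mature forms of the 5 genes. The seed of miR-92b-3p is that of the miR-25 and miR-92 family, and the seed of miR-497a-5p is that of the miR-15 and miR-16 family. Which of the precursor, the longer primary transcript or the mature form the probes measured is not given in the sources used here.

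Among 12 connexin and pannexin genes tested, 8 were higher and 4 lower with Cx43(E2), with a median change of 0.06 against 0.02 over all genes. Gja3, which encodes connexin 46 of the lens, was the called member: it measured 6.34, 6.37 and 6.41 on the IgG arrays and 6.57, 6.66 and 6.77 on the E2 arrays, a change of 0.29 ± 0.08 (adjusted p = 0.0464). Gja3 was dim, and it was not called after quantile normalization (0.19, adjusted p = 0.108). Gjd3, another connexin gene, measured 8.08, 8.25 and 8.38 against 8.49, 8.58 and 8.84, a change of 0.40 ± 0.11 (adjusted p = 0.0552). Panx2, a pannexin gene, had a change of 0.37 ± 0.12 (adjusted p = 0.0638). Both separated the arms without passing the test. Panx1, whose protein forms ATP-releasing channels, changed by -0.08 ± 0.15.

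Of 12 genes for prostaglandin E2 synthesis, export and receptors, 4 were higher and 8 lower and none was called. Ptgs2, which encodes cyclooxygenase 2, measured 13.24, 13.04 and 13.04 against 12.84, 12.87 and 12.91, a change of -0.23 ± 0.07 (adjusted p = 0.0535). The 3 IgG arrays lay above the 3 E2 arrays. Pla2g4a, the cytosolic phospholipase that frees arachidonic acid, had a change of -0.42 ± 0.20 (adjusted p = 0.161). Without the number 3 arrays of all groups both passed, Ptgs2 at -0.28 ± 0.08 (adjusted p = 0.0181) and Pla2g4a at -0.59 ± 0.17 (adjusted p = 0.0202). That setting called 4313 of the 14489 genes tested, so passing it does not set these genes apart. The receptor gene Ptger3 did not separate by arm: it measured 7.37, 7.24 and 8.82 on IgG 1, 2 and 3 and 8.60, 8.50 and 6.52 on E2 1, 2 and 3. IgG 3, E2 1 and E2 2 were the high arrays.

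The 15 genes of ATP and adenosine receptors and surface nucleotidases held no call, with 9 higher and 6 lower and a median change of 0.09. Entpd3, an enzyme that hydrolyses ATP outside the cell, had the smallest p (0.37 ± 0.10, adjusted p = 0.0517). It measured 5.74, 5.81 and 5.998 against 5.98, 6.23 and 6.46, so IgG 3 overlapped E2 1. Nt5e, which makes adenosine from AMP, changed by -0.02 ± 0.26, and P2rx7, an ATP-gated channel gene, by -0.06 ± 0.16. Of 11 osteocyte markers tested none was called. The lowest adjusted p was that of Sost (0.27 ± 0.09, adjusted p = 0.0680), followed by Dkk1, another Wnt inhibitor (0.30 ± 0.10, adjusted p = 0.0706). Both were dim.

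Cytokine and chemokine genes were mostly lower with Cx43(E2): 16 of 18 were lower and 2 higher, with a median change of -0.25 against 0.02 over all genes, and 7 of the 18 had all E2 arrays below all IgG arrays (16.1% of all genes did). None was called. Il6 measured 11.16, 10.55 and 10.53 on IgG 1, 2 and 3 and 9.999, 10.21 and 10.27 on E2 1, 2 and 3, a change of -0.59 ± 0.21 (adjusted p = 0.0879). Cxcl2, a neutrophil chemokine gene, measured 10.63, 10.002 and 9.76 against 8.82, 9.32 and 9.73, a change of -0.84 ± 0.33 (adjusted p = 0.102). IgG 1 was the highest array for both and E2 1 the lowest. Cxcl5 had a change of -0.42 ± 0.15 and Ccl2, a monocyte chemokine gene, of -0.26 ± 0.09. The list's median was -0.22 in the incubator after quantile normalization, and at the 1g, 2g and ug positions it was -0.12, -0.17 and -0.09. The interferon response list had 16 of 18 lower, none called and a median of -0.12. Of its 18 genes, 3 had all E2 arrays below all IgG arrays, near the 16.1% of all genes. Without the number 3 arrays of all groups the median of this list was 0.01. Gbp3, an interferon-induced GTPase gene, had the list's smallest p (-0.52 ± 0.17, adjusted p = 0.0642).

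Among stress and housekeeping lists, calls were single genes. Hspb1, a small heat shock protein gene, rose: it measured 9.30, 9.38 and 9.21 against 9.56, 9.65 and 9.68, a change of 0.33 ± 0.09 (adjusted p = 0.0468). Of 14 heat shock genes 4 were higher and 10 lower, with a median of -0.14, so Hspb1 went against most of its list. Pdia3, a disulfide isomerase of the endoplasmic reticulum, fell by 0.25 on the log2 scale, in a list with 6 of 21 higher. Atg3, an enzyme that attaches lipid to LC3 in autophagy, measured 10.18, 10.21 and 10.11 against 9.71, 9.78 and 9.73, a change of -0.43 ± 0.10 (adjusted p = 0.0435). Itga1, the gene of a collagen-binding integrin chain, changed by -0.36 ± 0.10. Rpph1, the RNA of ribonuclease P, was among the brightest called genes: it measured 13.21, 13.27 and 13.34 against 13.50, 13.45 and 13.51, a change of 0.21 ± 0.04 (adjusted p = 0.0380). It had the smallest adjusted p after quantile normalization (0.25, adjusted p = 0.00660). Ribosomal protein genes were lower in 12 of 15, 8 of them with no overlap (16.1% of all genes with E2 lower), and none was called.

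Some families were chosen after their values were seen, so their counts support nothing, and over all genes 53.9% were higher and 46.1% lower, with 1.60% called up and 1.32% called down. Of 17 Hnrnp genes, which encode RNA-binding proteins of the nucleus, 15 were lower and 3 fell, with a median of -0.19. Hnrnpk measured 12.70, 12.73 and 12.69 on the IgG arrays and 12.52, 12.53 and 12.53 on the E2 arrays, a change of -0.18 ± 0.04 (adjusted p = 0.0435). The other kept probe sets of Hnrnpk changed by -0.14 and -0.19. Hnrnpd changed by -0.25 ± 0.06 and Hnrnpdl by -0.24 ± 0.06. The 52 Rab genes, which encode GTPases of membrane traffic, did not move one way: 27 were higher and 25 lower, with a median of 0.01. Those that fell were Rab18 (-0.50 ± 0.13), Rab10 (-0.27 ± 0.06) and Rab21 (-0.25 ± 0.06). Of 35 MAP kinase cascade genes 20 were higher and 15 lower, with a median of 0.05. Called among them were the falls of Map3k2 (-0.49), Map4k5 (-0.39), Mapk9 (-0.32) and Map3k5 (-0.25) and the rise of Mapk15 (0.44). Of 264 numbered zinc finger genes 169 were lower, with 1 rise (Zfp704) and a median of -0.11. Their 6 falls compare with 1.73% and 2.83% of genes called down in the second and the middle bin by level, so the count lies near the background. Of 44 collagen chain genes 40 were higher and 5 rose, Col8a2 (0.51), Col4a5 (0.42), Col27a1 (0.41), Col26a1 (0.39) and Col4a4 (0.28), with a median of 0.22 and 22 not overlapping (19.0% of all genes with E2 higher). Other dim sets were also mostly higher: 87 of 99 olfactory receptor genes, with 1 rise and 1 fall called, and 8 of 8 endothelial markers, with none called. The medians of the Hnrnp, zinc finger and collagen genes kept their sign after quantile and cyclic loess normalization.

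The antibody comparison was also made at the 3 platform positions, where limma called 0 genes each. Unadjusted p-values below 0.05 numbered 1804 at 1g, 626 at 2g and 1862 at ug. The called falls kept their sign there in 190, 177 and 187 of 191 genes at 1g, 2g and ug, with medians of -0.27, -0.18 and -0.25 against -0.45 in the incubator. The called rises kept it in 185, 175 and 215 of 232, with medians of 0.10, 0.05 and 0.11 against 0.37. Over all genes tested 52.5%, 50.1% and 51.0% were lower at 1g, 2g and ug, and 47.5%, 49.9% and 49.0% were higher. Platform arrays may share cultures with the incubator arrays of the same arm and number, so these are descriptions. The difference between the incubator change and the mean platform change, tested in the same fit, was called in 0% of genes (0 of 14489, with 965 at an unadjusted p below 0.05). Its smallest p belonged to Hnf4aos, an antisense transcript of Hnf4a. Hnf4aos measured 6.02, 6.02 and 6.02 on IgG 1, 2 and 3 and 6.41, 6.53 and 6.52 on E2 1, 2 and 3, and rose by 0.47 ± 0.08. It changed by -0.16 at 1g, -0.03 at 2g and 0.04 at ug, a difference of 0.52 ± 0.09 (adjusted p = 0.106). Whether its probes also read Hnf4a was not tested. Next were Vsig8 (0.40, adjusted p = 0.393) and Ecrg4 (0.54, adjusted p = 0.393), and on the lower side Stmn1 (-0.21), Rpl32l (-0.32) and Slc25a4 (-0.23).

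**Figure D4:**
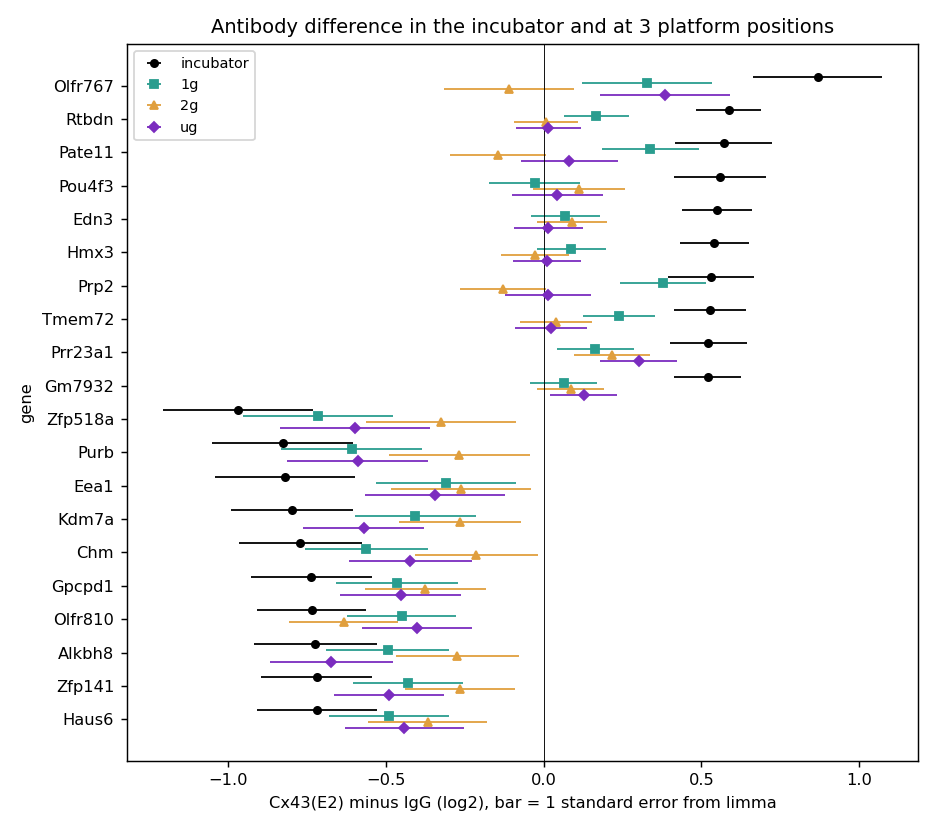
Change with Cx43(E2) in the incubator and at the 1g, 2g and ug positions for the 10 largest rises and 10 largest falls called in the incubator (log2, bars of 1 standard error from limma). The falls lie below 0 at all 4 places, while rises such as Edn3 (0.55 in the incubator) lie near 0 on the platform. The genes were chosen on the incubator values.

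The number 3 arrays opposed the others strongly for some genes, though not for most. The difference of E2 minus IgG had the same sign for numbers 1 and 2 in 11956 genes, and number 3 had the opposite sign in 5191 of these (43.4%). In the rest number 3 kept the sign, with all 3 positive in 3929 genes and all 3 negative in 2836. The count of opposite signs is no larger than unrelated differences could give, so it shows no opposition over all genes. Across genes the differences of numbers 1 and 2 correlated at 0.83, and those of number 3 at -0.10 and -0.02 with them (Pearson, 14489 genes, no test). Car6, which encodes the secreted carbonic anhydrase of saliva, measured 10.06, 10.23 and 6.76 on IgG 1, 2 and 3 and 7.15, 7.06 and 9.90 on E2 1, 2 and 3. Slc7a3, a cationic amino acid transporter gene, measured 10.06, 10.28 and 6.94 against 7.68, 6.98 and 10.26. For both, the number 3 arrays lay near the level of numbers 1 and 2 of the other arm, a placement that the rule for naming them selects. Ctsk, which encodes the collagen-degrading protease cathepsin K, measured 11.78, 11.77 and 10.52 against 10.11, 10.18 and 11.84. Aldh1l2, an enzyme of mitochondrial folate metabolism, measured 11.36, 11.44 and 9.45 against 9.35, 9.21 and 11.44. In the other direction, Ces1g, a carboxylesterase gene, measured 8.63, 8.54 and 10.22 against 10.24, 10.11 and 8.15. Ramp3, which encodes a partner protein of the calcitonin receptor family, measured 9.22, 8.96 and 9.76 against 10.22, 9.99 and 8.65. All 16 genes named by this rule, 8 in each direction, kept the 3 signs at 1g, 2g and ug as well. Arrays of the same arm and number may share cultures across positions, so this is no independent repeat. The share of all genes that kept the 3 signs is not given here. None of the 16 was called over all 3 numbers, which follows from a rule that picks genes whose arms overlap widely. The change of Car6 was then -0.98 ± 1.33 (adjusted p = 0.638) and that of Ces1g 0.37 ± 0.80 (adjusted p = 0.773), each smaller than its standard error.

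**Figure D5:**
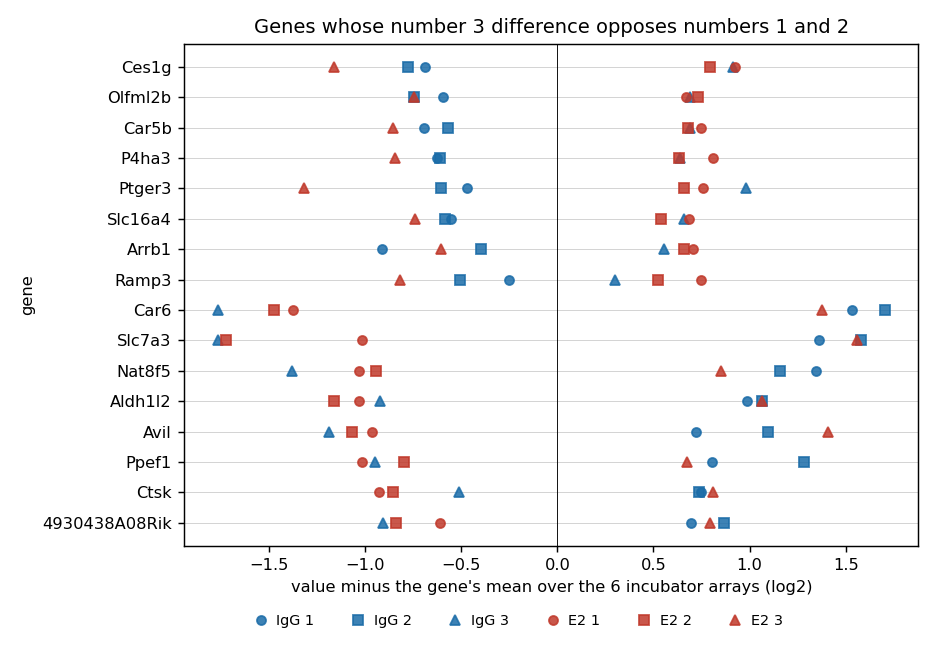
The 16 genes with the strongest opposition between number 3 and numbers 1 and 2 on each incubator array, as the value minus the gene's mean over the 6 arrays (log2). Triangles mark number 3: the blue triangle (IgG 3) lies nearer to E2 1 and E2 2 than to its own arm, and the red triangle (E2 3) nearer to IgG 1 and IgG 2, as for Car6 at 6.76 and 9.90. The genes were picked on these same arrays by a rule that selects this placement, so it supports nothing.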

How the data were processed

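Total RNA was extracted with Trizol and labelled as biotinylated cRNA, per the labels' protocols. The values the authors deposited are log2 intensities, judged from their range of 2.36 to 14.06. MAS5 is named, with its role not stated, per the submitters' processing notes. How arrays were scaled to one another and the genome build are not given in the sources used here. Of 35556 probe sets, 21789 carried 1 gene symbol in the platform annotation, which can be old, 1621 several and 12146 none, and 21698 matched RefSeq by gene number. Probe sets were kept where at least 3 of 24 arrays put them at or above that array's 40th percentile, and the brightest of each gene was used, for 14489 genes.

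The test was limma (3.58.1, R 4.3.3) on 8 group means over all 24 arrays, no block, a variance trend, two-sided tests, Benjamini-Hochberg adjustment and a threshold of 0.05 (16 residual degrees of freedom, prior 4.08). The fit was tested on simulated data with independent noise on each array. Likeness between arrays of 1 arm and number, and the number 3 pattern, were not simulated, so that test does not cover them. Named genes were Gja1, the 10 largest called rises and falls with no overlap, the 3 of smallest p in each direction of the incubator-platform difference, 8 in each direction whose number 3 difference opposed numbers 1 and 2, and list members of smallest p. Called list members, called miRNA genes and gene families were named after their values were seen. The comparison and the 32 gene lists were chosen with earlier results of these data known. Alternatives were other normalizations, filters, blocks and left-out arrays.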

Additional observations from a re-analysis of the deposited data

Results flagged for a closer look

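Probe sets with no gene symbol or several were outside the comparison. Of 6855 such probe sets that passed the filter, 163 were called by limma between the incubator arms (2.38%), 103 higher and 60 lower with Cx43(E2), and 144 after quantile normalization.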

How the results depend on the processing

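The count of 423 called genes was 0 with the 6 incubator arrays alone, 0 with arm and number as a random block (lowest adjusted p 0.0633), 46 after quantile normalization and 60 with no filter on dim probe sets. It was 414 with the mean of a gene's probe sets and 482 without the variance trend. Without 1 array or number it ran from 0 to 4313. Cyclic loess normalization and the genes above the median level alone, chosen after seeing the data, gave 182 and 0. The numbers are not said to pair arrays across arms, and number as a replicate block gave 520. The incubator-platform difference had 0 calls under every alternative run, the replicate block within arm included (1746 at an unadjusted p below 0.05), and 277 to 1222 at that p without 1 array or number. The share of genes with no overlap was 35.0%, 30.8% after quantile normalization, 32.3% with no filter, 29.7% after cyclic loess, and 39.3% to 75.0% without 1 array or number, where fewer arrays overlap less often. All 423 genes kept their sign under these alternatives, except 2 with the mean of probe sets, and those above the median level were the ones tested there. For the 422 genes with no overlap, leaving out arrays could not change the sign. The fits with blocks, with the 6 incubator arrays or without the trend leave the change itself as it was. These settings are therefore no check of direction. The cause of the lost calls was not tested. Precision is limited by the 3 arrays of each arm.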
